A study of Rattus norvegicus with 6 samples.

Results

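The genes described here are 55 genes of the DNA damage response and of DNA repair, chosen by name across 5 kinds of pathway: homologous recombination with the Fanconi genes, end joining, mismatch repair, excision repair and the checkpoint kinases with their signalling partners. A gene was taken as measured where a probe set had that symbol alone, and 50 of the 55 were, among 14217 genes measured in all. Atm, Brip1, Rad54b, Fanci and Fancm were not analysed here. Expression was read on 6 Affymetrix rat arrays of NRK-52E, an established rat cell line from kidney tubule epithelium that serves as a model of the tubule under profibrotic stimulation. Of these, 3 arrays carried RNA of cells with a lentiviral short hairpin RNA (shRNA) against AMPKα2, one of the catalytic subunits of AMP-activated protein kinase, an energy sensor, and 3 carried RNA of cells with a control lentivirus. Both groups had received 10 ng/mL TGF-β1, a cytokine known to push epithelium into a mesenchymal form, for 24 h, so neither group represents resting tubule cells, and no untreated cells were analysed here. The labels call the 3 arrays of a group biological replicates without saying whether they came from separate cultures, so the p-values measure only the spread between these arrays.

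Cells repair each kind of DNA lesion by its own route. Broken ends are either rejoined directly by end joining, at any time of the cell cycle, or copied from the sister chromatid by homologous recombination, which needs a replicated template and is therefore active in S and G2 phases. The Fanconi proteins unhook crosslinks ahead of recombination, mismatch repair corrects copying errors behind the replication fork, and base and nucleotide excision repair remove damaged bases and bulky adducts, in dividing and resting cells alike. The kinases ATM and ATR sense damage and stalled forks and act through CHEK2 and CHEK1 to hold the cell cycle. Many recombination, mismatch repair and ATR pathway genes are transcribed mostly in cells that are about to replicate or are replicating, whereas most excision repair genes are expressed through the whole cycle. In injured kidney tubules, arrest of damaged cells in G2 and M phases has been tied to fibrosis.

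The values are log2 expression as deposited, 1 value per probe set and array, and differences are AMPKα2 shRNA minus control on that scale, tested with limma over all 14217 genes with a Benjamini-Hochberg adjusted p of 0.05 as the threshold. These arrays differed in most genes and in the shape of their distributions. Over probe sets the SD was 1.76 to 1.82 on the AMPKα2 shRNA arrays and 2.17 to 2.19 on the control arrays, and genes at low levels were mostly higher and genes at high levels mostly lower with the AMPKα2 shRNA. The counts below are therefore to be read against the share of all genes with the same call, 41.5% for lower and 43.6% for higher. These shares are printed beside the counts of all measured repair genes and beside some counts of smaller lists. Each direction was also read after quantile normalization, cyclic loess and median centring, which moved the median change of all genes from 0.05 as deposited to 0.16, 0.09 and -0.17. Prkaa2, the gene for the targeted AMPKα2, read 6.64, 6.76 and 6.49 with the AMPKα2 shRNA and 6.83, 6.79 and 6.89 in controls, a difference of -0.21 that did not pass (limma, adjusted p = 0.0552), and the groups keep the names of their labels. With median centring the difference of Prkaa2 was -0.42 and passed. Prkaa1, the gene for the other catalytic subunit, fell by 2.34 (limma, SE 0.09, adjusted p = 7.04e-09), and in every scaling. Of 11 tubule epithelium markers 9 rose and 1 fell as deposited, but 4 rose with quantile-normalized values and 4 with cyclic loess. As deposited their mean level was 6.05 to 6.12 on AMPKα2 shRNA arrays and 5.49 to 5.55 on control arrays. Among them the keratin gene Krt8 averaged 12.24 on AMPKα2 shRNA arrays and 12.49 on control arrays, while the epithelial markers Cdh1 and Epcam averaged 4.74 and 3.47 on AMPKα2 shRNA arrays and 4.31 and 2.97 on control arrays. The mean level of 8 fibroblast markers was 7.01 to 7.11 on AMPKα2 shRNA arrays and 5.56 to 5.59 on control arrays, and all 8 rose. For 5 leukocyte markers it was 5.09 to 5.25 on AMPKα2 shRNA arrays and 4.31 to 4.38 on control arrays, and all 5 rose. For 5 endothelial markers, of which 4 rose, it was 4.81 to 5.05 on AMPKα2 shRNA arrays and 4.11 to 4.31 on control arrays. Most genes at low levels rose. At control levels of 4 to 5 it was 1782 of 1983, with a median change of 0.79. Fibroblast markers had control levels of 2.83 to 9.21, and 5 of the 8 rose at least 2-fold, as did 11.6% of all genes. In all 4 scalings 7 fibroblast, 4 leukocyte, 3 endothelial and 4 tubule epithelium markers rose, as did 25.5% of all genes. The median distance of markers from the median of genes at their own level was 0.26 for fibroblast, 0.15 for leukocyte, 0.22 for endothelial and -0.10 for tubule epithelium markers. The part of such marker shifts in the results below was not tested.

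Repair genes were mostly lower with the AMPKα2 shRNA. Of the 50 measured, 33 fell (66.0%, against 41.5% of all genes), 4 rose (8%, against 43.6% of all genes) and 13 did not pass, so that 37 passed in either direction, against 85.1% of all genes. In a bulk sample fewer cells of a kind, such as cycling cells, and less transcript in each cell cannot be told apart. A fall of at least 2-fold was seen in 17 (34.0%, against 18.6% of all genes), and a rise of that size in 1 (11.6% of all genes). The median change of the 50 was -0.51, against 0.05 for all genes, and it was -0.52 with quantile-normalized values, -0.62 with cyclic loess and -0.73 with median centring. Read on each AMPKα2 shRNA array against the control mean, the median was -0.47, -0.50 and -0.61. The number that fell was 27 with quantile-normalized values (28.9% of all genes), 31 with cyclic loess (31.5%) and 41 with median centring (48.2%), and the number that rose was 11, 11 and 3 (43.8%, 40.2% and 35% of all genes). In all 4 scalings 26 repair genes fell (26.4% of all genes) and 3 rose (25.5% of all genes). Of the other repair genes, 1 passed in no scaling and 20 had calls that differed between scalings. The groups did not overlap in 36 of the 50, a smaller share than the 87.1% of all genes.

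**Figure D1:**
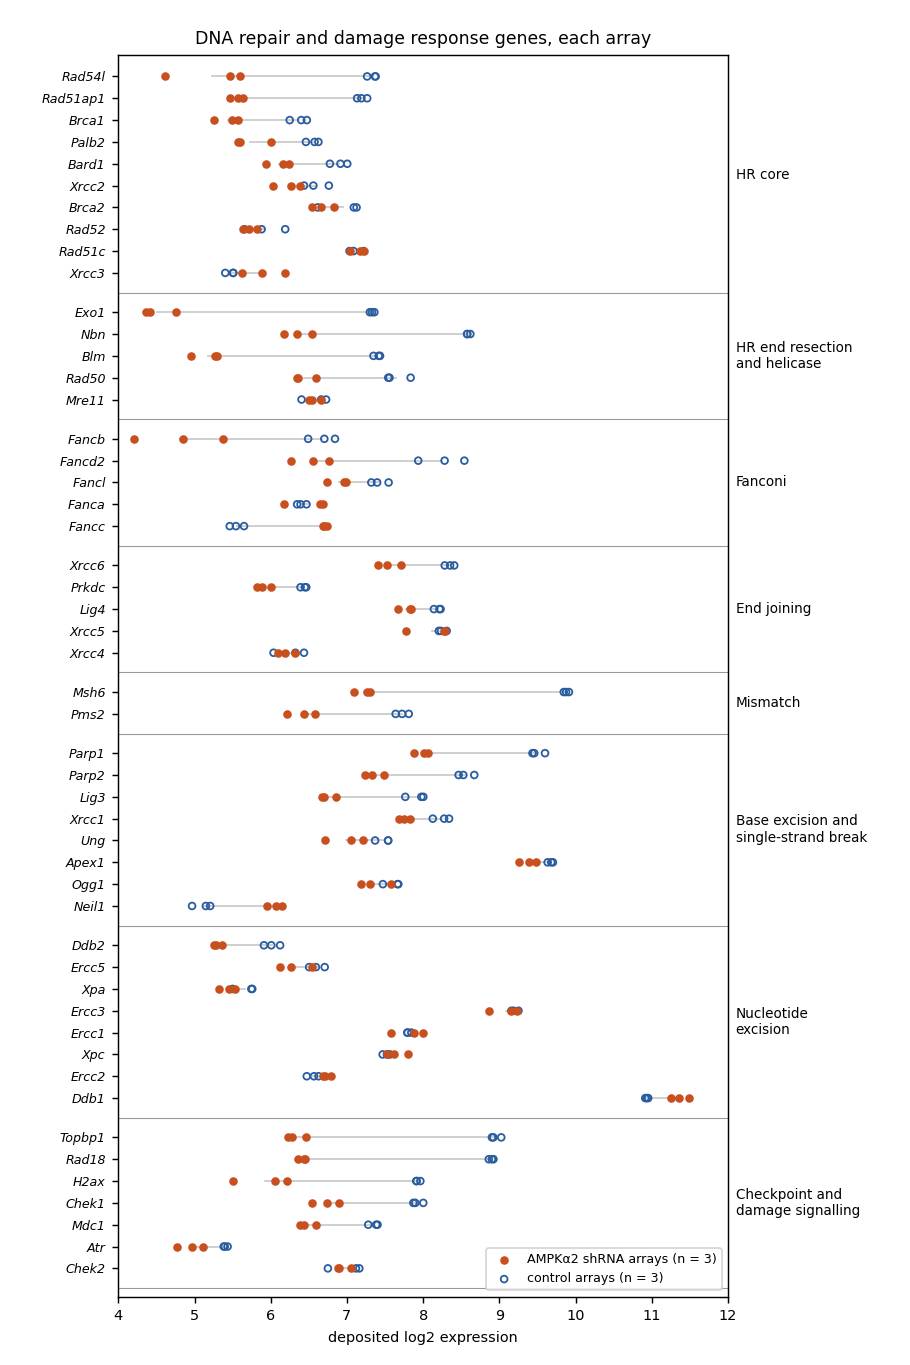
Deposited log2 expression of the 50 measured repair genes, 1 row per gene ordered by pathway, with the 3 AMPKα2 shRNA arrays as filled points, the 3 control arrays as open points and a grey line between the group means. For Exo1, Msh6, Topbp1 and Rad18 the filled points lie more than 2 log2 units left of the open points, while Fancc, Neil1 and Ddb1 have their filled points to the right.

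Exo1, Msh6, Topbp1 and Rad18 had the largest falls. Exo1, a 5′-to-3′ exonuclease that resects broken ends and also excises mismatched strands, read 4.37, 4.41 and 4.76 on the AMPKα2 shRNA arrays, against 7.33, 7.30 and 7.36 on the control arrays. The groups lay far apart, and Exo1 fell by 2.82 log2 units (limma, SE 0.11, adjusted p = 5.79e-09), which is 7.04-fold. Msh6, which recognises base mismatches, read 7.30, 7.26 and 7.10 on the AMPKα2 shRNA arrays, against 9.91, 9.88 and 9.84 on the control arrays. It fell by 2.66 (SE 0.09), again with no overlap and with arrays of a group close together. Topbp1, the direct activator of the kinase ATR, fell by 2.62 (SE 0.09), with 6.47, 6.28 and 6.22 under the AMPKα2 shRNA and 8.90, 9.02 and 8.92 in controls. Its other probe set fell by 2.50. Rad18, the ubiquitin ligase that marks stalled forks for translesion synthesis, fell by 2.48 (SE 0.08), with 6.45, 6.44 and 6.35 under the AMPKα2 shRNA and 8.90, 8.92 and 8.86 in controls. All 4 falls stood in every scaling, at 1.96 to 3.21 log2 units after quantile normalization, cyclic loess or median centring.

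Promoters of these 4 genes are shown because their falls were the largest of the repair genes, so the genes were picked by their change. The letters of E2F factors were marked because S phase genes often carry binding sites of these factors near their start. Each is the 250 bases before the annotated start in RefSeq (build GRCr8), 5′ to 3′ on the gene's strand, at chr13:90341768-90342017 (+ strand) for Exo1, chr6:12333506-12333755 (− strand) for Msh6, chr8:112766541-112766790 (+ strand) for Topbp1 and chr4:147376870-147377119 (− strand) for Rad18. Capitals mark E2F-like letters (TTTGGCGC, TTTCCCGC, TTTGCCGC or TTTCGCGC), CHR-like letters (TTTGAA or TTCGAA, after the cell cycle homology region of G2-M genes) and the CCAAT box, on either strand.
Exo1: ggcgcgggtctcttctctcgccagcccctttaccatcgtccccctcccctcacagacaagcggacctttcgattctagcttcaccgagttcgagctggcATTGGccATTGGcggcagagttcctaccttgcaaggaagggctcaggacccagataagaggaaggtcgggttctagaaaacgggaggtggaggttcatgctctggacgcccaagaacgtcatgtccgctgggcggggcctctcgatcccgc
Msh6: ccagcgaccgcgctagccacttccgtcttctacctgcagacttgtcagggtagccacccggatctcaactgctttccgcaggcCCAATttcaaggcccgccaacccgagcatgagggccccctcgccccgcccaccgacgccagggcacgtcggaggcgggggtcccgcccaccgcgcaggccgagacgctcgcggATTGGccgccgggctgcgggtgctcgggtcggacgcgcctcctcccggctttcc
Topbp1: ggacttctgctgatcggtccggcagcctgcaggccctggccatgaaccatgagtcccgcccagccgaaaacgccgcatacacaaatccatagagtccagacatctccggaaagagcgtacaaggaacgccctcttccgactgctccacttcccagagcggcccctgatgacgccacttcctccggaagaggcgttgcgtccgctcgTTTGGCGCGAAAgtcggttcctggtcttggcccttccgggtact
Rad18: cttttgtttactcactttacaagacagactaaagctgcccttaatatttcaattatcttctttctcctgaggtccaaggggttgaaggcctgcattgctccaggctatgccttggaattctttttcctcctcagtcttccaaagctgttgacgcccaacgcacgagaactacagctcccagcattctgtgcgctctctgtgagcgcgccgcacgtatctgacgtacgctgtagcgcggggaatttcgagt
Topbp1 had 2 E2F-like matches, on opposite strands and overlapping, that began 44 and 40 bases before the start. Exo1 had 2 CCAAT boxes, at 151 and 144 bases, both on the opposite strand. Msh6 had CCAAT boxes at 167 and 54 bases and an E2F-like match that began 5 bases before the start and ran beyond the stretch shown. Rad18 had no match to any of these letters in its window. Windows of 300 bases, which add the 50 bases after the start, were at hand for 42 of the 50 measured repair genes. E2F-like letters were in 8 of these (19.0%), against 3.63% of the 11733 measured genes with a window and 2.26% of all 27457 genes with one. Among the repair genes that fell, 7 of 26 had E2F-like letters (Msh6, Topbp1, Fancd2, Chek1, Bard1, Fancl and Ung), and among those that did not fall, 1 of 16 did, which was Fancc. The calls of Fancl and Ung did not stand after quantile normalization. Split at a fall of at least 2-fold, it was 4 of 15 (26.7%) against 4 of 27 of the others (14.8%). CHR-like letters were in 19.0% and the CCAAT box in 42.9% of repair gene windows, against 14% and 37.3% of measured genes and 19.5% and 37.8% of all genes. Repair gene windows had a median GC content of 59.7%, close to the 60.0% of measured genes. A match describes letters and is no evidence of binding.

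Most genes that process broken ends for homologous recombination fell steeply. Of 5 measured, 4 fell by at least 2-fold (80%, against 18.6% of all genes) and stayed lower in all 4 scalings (26.4% of all genes). All 5 were called lower with median centring, as were 48.2% of all genes. The median change as deposited was -2.23. Nbn, the NBS1 subunit that links the MRE11-RAD50-NBN complex to ATM, read 6.54, 6.34 and 6.17 on the AMPKα2 shRNA arrays, against 8.58, 8.62 and 8.58 on the control arrays, and fell by 2.24 (SE 0.10). Blm, the Bloom helicase that joins EXO1 in resection and dissolves recombination intermediates, read 5.29, 4.96 and 5.27 with the AMPKα2 shRNA and 7.43, 7.35 and 7.42 in controls, and fell by 2.23 (SE 0.10). Rad50, the ATPase of the same complex, read 6.59, 6.35 and 6.36 with the AMPKα2 shRNA and 7.54, 7.84 and 7.56 in controls, and fell by 1.21 (SE 0.11). A further probe set of Rad50 fell by 1.32, while another, at a control level of 3.21, rose by 0.35. Mre11, the nuclease of the complex, read 6.55, 6.5 and 6.66 with the AMPKα2 shRNA and 6.40, 6.73 and 6.66 in controls. Its groups overlapped, and its change of -0.03 (SE 0.10) did not pass, while -0.24 with median centring did.

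Recombination genes that load and assist the strand-exchange filament did not all move alike. Of 10 measured, 6 fell (60%, against 41.5% of all genes), 1 rose (10%, against 43.6%) and 3 did not pass. Their median was -0.57. Rad54l, the motor protein that remodels the filament, read 5.47, 5.60 and 4.61 on AMPKα2 shRNA arrays and 7.26, 7.38 and 7.37 on control arrays. Replicate 3 of the AMPKα2 shRNA arrays was the lowest, the groups did not overlap, and the fall was 2.11 (SE 0.21). Rad51ap1, which stimulates strand invasion, read 5.63, 5.46 and 5.58 with the AMPKα2 shRNA and 7.13, 7.19 and 7.27 in controls, and fell by 1.64 (SE 0.09). Smaller falls were seen in Brca1 (0.93, SE 0.10) and Bard1 (0.78, SE 0.10), whose proteins form a ubiquitin ligase at breaks, and in Palb2 (0.83, SE 0.12), which bridges BRCA1 and BRCA2. Brca1 read 5.49, 5.26 and 5.57 with the AMPKα2 shRNA and 6.25, 6.40 and 6.47 in controls, so its groups were separate. Xrcc2, a paralog of the recombinase, fell by 0.36 (SE 0.12, limma, adjusted p = 0.0137), and its call was lost without AMPKα2 shRNA replicate 2 (-0.26) or control replicate 2 (-0.27). All 6 of these genes fell in every scaling. Brca2, which loads the recombinase, read 6.55, 6.83 and 6.66 with the AMPKα2 shRNA and 7.13, 7.09 and 6.62 in controls. Control replicate 3 lay among the AMPKα2 shRNA arrays, and the change of -0.27 (SE 0.14) did not pass. It passed without that array, at -0.43, and with median centring, at -0.48. Rad52, an annealing factor, had -0.19 (SE 0.13), which did not pass as deposited but passed after each other scaling, at -0.46, -0.63 and -0.40, and at -0.31 without control replicate 3. The paralog Rad51c had 0.03 (SE 0.09), which did not pass, and 0.40 after quantile normalization and 0.31 after cyclic loess, both of which did. Xrcc3, another paralog, rose by 0.43 as deposited (SE 0.13), but its values of 0.14, -0.07 and 0.21 in the other scalings did not pass.

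Fanconi genes moved in both directions. Of 5 measured, 3 fell (60%, against 41.5% of all genes), 1 rose (20%, against 43.6%) and 1 did not pass. Their median was -0.53. Fancd2, the protein whose ubiquitination starts crosslink repair, read 6.27, 6.77 and 6.56 on AMPKα2 shRNA arrays and 7.94, 8.54 and 8.28 on control arrays, and fell by 1.72 (SE 0.16). Fancb, a subunit of the core complex, read 4.21, 5.37 and 4.85 with the AMPKα2 shRNA and 6.70, 6.49 and 6.84 in controls. Its AMPKα2 shRNA arrays were spread over more than 1 log2 unit, yet all lay below the controls, and it fell by 1.87 (SE 0.23). Fancl, the ubiquitin ligase of that complex, fell by 0.53 (SE 0.10), and its change of -0.18 after quantile normalization did not pass. Fancc, another core subunit, went the other way with 6.69, 6.74 and 6.69 on AMPKα2 shRNA arrays and 5.46, 5.54 and 5.65 on control arrays. It rose by 1.16 (SE 0.08), its other probe sets rose by 0.64 and 0.43, and the rise stood in all 4 scalings. Genes at its control level, 5 to 6, had a median change of 0.81. Fanca had 0.10 (SE 0.13), which did not pass except without AMPKα2 shRNA replicate 2 (0.27).

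**Figure D2:**
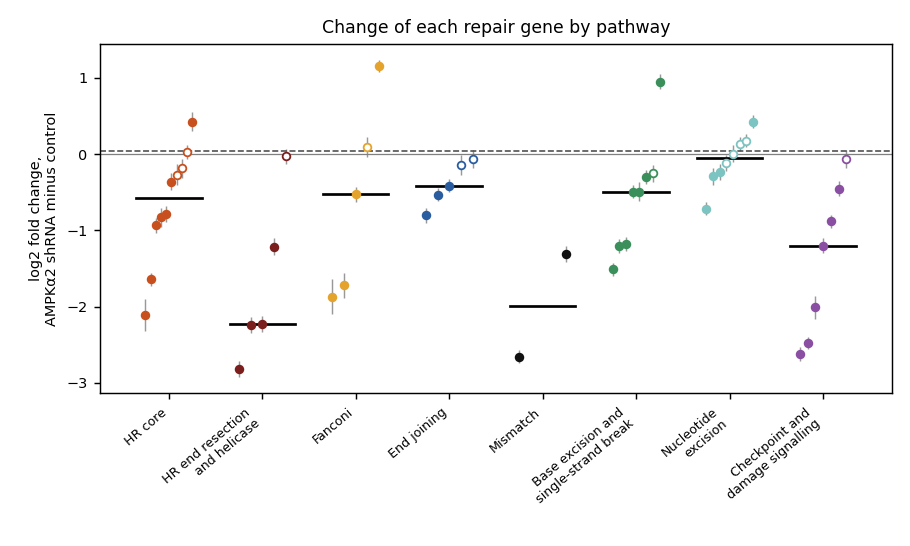
Log2 fold change (AMPKα2 shRNA minus control) of each measured repair gene, grouped by pathway, with its SE as a bar, filled points for genes that passed and open points for those that did not. Short black lines are the medians of a pathway, from -2.23 for end resection to -0.05 for nucleotide excision, and the dashed line is the median of all genes, 0.05.

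End joining genes changed by less than 2-fold. Of 5 measured, 3 fell (60%, against 41.5% of all genes) and 2 did not pass, and their median was -0.41. The Ku70 gene Xrcc6 read 7.71, 7.53 and 7.41 with the AMPKα2 shRNA and 8.35, 8.41 and 8.28 in controls, and fell by 0.80 (SE 0.10), but its change of -0.18 after quantile normalization did not pass. Its partner Xrcc5, which encodes Ku80, read 8.28, 8.27 and 7.78 with the AMPKα2 shRNA and 8.21, 8.23 and 8.31 in controls. Those groups overlapped, and its change of -0.14 (SE 0.13) did not pass, while it passed at 0.53 with quantile-normalized values, at 0.51 with cyclic loess and at -0.36 with median centring. The other probe set of Xrcc5, at a control level of 5.74, rose by 0.53 as deposited. Prkdc, the DNA-dependent protein kinase that Ku recruits, read 6.0, 5.82 and 5.89 on AMPKα2 shRNA arrays and 6.47, 6.45 and 6.39 on control arrays, and its fall of 0.53 (SE 0.08) was the one of this pathway that stood in all 4 scalings. Lig4, the ligase of the route, fell by 0.41 as deposited (SE 0.09), but rose by 0.23 with quantile-normalized values and 0.19 with cyclic loess. The other probe set of Lig4 had -0.21, which did not pass. Xrcc4, the partner of that ligase, had -0.06 (SE 0.11), which did not pass, and its other probe set, at a control level of 4.97, rose by 0.72. The probe set used passed as lower with cyclic loess (-0.30) and with median centring (-0.28).

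Both measured mismatch repair genes fell at least 2-fold, in each scaling. Of all genes 18.6% fell at least 2-fold as deposited. Beside Msh6, described above, Pms2, the endonuclease subunit that nicks the faulty strand, read 6.58, 6.44 and 6.22 on AMPKα2 shRNA arrays and 7.64, 7.81 and 7.72 on control arrays. It fell by 1.31 (SE 0.10, limma, adjusted p = 6.93e-07) with no overlap of the groups.

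In base excision and single-strand break repair, the poly(ADP-ribose) polymerases and DNA ligase III fell, and the glycosylases showed no shared direction. Of 8 measured genes, 6 fell (75%, against 41.5% of all genes), 1 rose (12.5%, against 43.6%) and 1 did not pass. Their median of -0.49 became 0.02 with quantile-normalized values and -0.02 with cyclic loess. Parp1, which detects strand breaks, read 8.02, 7.87 and 8.07 with the AMPKα2 shRNA and 9.46, 9.43 and 9.60 in controls, and fell by 1.51 (SE 0.09). Parp2, its close relative, fell by 1.20 (SE 0.10), with 7.24, 7.48 and 7.32 on AMPKα2 shRNA arrays and 8.67, 8.47 and 8.53 on control arrays. Lig3, which seals the nick, read 6.86, 6.69 and 6.67 with the AMPKα2 shRNA and 7.77, 7.98 and 8.0 in controls. It fell by 1.18 (SE 0.10), and its other probe set fell by 1.0. These 3 genes stayed lower in every scaling, by at least 0.59. Xrcc1, the scaffold that holds LIG3, fell by 0.49 as deposited (SE 0.09), but had 0.15 and 0.12 after quantile normalization and cyclic loess, which did not pass. The uracil glycosylase gene Ung fell by 0.49 (SE 0.12), and its values of -0.11 and -0.16 in the same scalings did not pass. Apex1, the endonuclease that cuts at abasic sites, fell by 0.30 as deposited (SE 0.09) and rose by 0.44 and 0.40 after quantile normalization and cyclic loess. The 8-oxoguanine glycosylase gene Ogg1 had -0.25 (SE 0.11, limma, adjusted p = 0.0594), which did not pass. It passed with median centring (-0.46), and without AMPKα2 shRNA replicate 2 (-0.36) or control replicate 1 (-0.31). Neil1, a glycosylase for oxidised pyrimidines, read 6.08, 5.95 and 6.15 with the AMPKα2 shRNA and 5.21, 5.15 and 4.97 in controls. It rose by 0.95 (SE 0.10) and in each other scaling, by 0.43 to 0.73, and genes of its control level, 5 to 6, had a median change of 0.81.

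Nucleotide excision repair genes had the median change nearest to 0 as deposited. Of 8 measured, 3 fell (37.5%, against 41.5% of all genes), 1 rose (12.5%, against 43.6%) and 4 did not pass. None changed 2-fold. Their median of -0.05 became 0.45 with quantile-normalized values, 0.37 with cyclic loess and -0.27 with median centring. Ddb2, which finds ultraviolet damage and is a p53 target, read 5.26, 5.29 and 5.36 with the AMPKα2 shRNA and 5.91, 6.01 and 6.12 in controls, and fell by 0.71 (SE 0.09) and in each scaling. Its other probe set had -0.22, which did not pass. Its partner Ddb1, an adaptor of CUL4 ubiquitin ligases, read 11.49, 11.35 and 11.25 on AMPKα2 shRNA arrays and 10.94, 10.95 and 10.91 on control arrays. It rose by 0.43 (SE 0.09), at a level where genes, with 10 to 11 on control arrays, had a median change of -0.84, and it rose in all 4 scalings. The other probe sets of Ddb1 had 0.28, which passed, and 0.05, which did not. Xpa, which verifies the lesion, and Ercc5, the nuclease that cuts on its 3′ side, fell by 0.23 (SE 0.10) and 0.29 (SE 0.11), and the groups of both overlapped. Neither of these 2 calls stood without AMPKα2 shRNA replicate 1 (-0.24 for Xpa and -0.27 for Ercc5), AMPKα2 shRNA replicate 3 (-0.18 and -0.20) or control replicate 1 (-0.19 and -0.24). The call of Xpa was also lost without control replicate 3 (-0.19), and that of Ercc5 without control replicate 2 (-0.30). Xpa fell in all 4 scalings, but did not pass in the fit over all probe sets (limma, adjusted p = 0.0555). For Ercc5 the change of -0.29 after quantile normalization did not pass. The helicase genes of the transcription factor TFIIH, Ercc3 and Ercc2, had -0.12 (SE 0.10) and 0.18 (SE 0.08), and the damage sensor Xpc and the nuclease subunit Ercc1 had 0.13 (SE 0.09) and 0.01 (SE 0.11). None of these 4 passed as deposited, and all 4 rose after quantile normalization, by 0.31 to 0.66, and after cyclic loess, by 0.18 to 0.61. After median centring Ercc3 fell instead, by 0.33.

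Most checkpoint and damage signalling genes fell. Of 7 measured genes of the checkpoint and of damage signalling, 6 fell (85.7%, against 41.5% of all genes) and 1 did not pass. Their median was -1.20, and the 6 fell in all 4 scalings, as did 26.4% of all genes. Chek1, the effector kinase of ATR, read 6.74, 6.89 and 6.54 with the AMPKα2 shRNA and 7.90, 8.0 and 7.87 in controls, and fell by 1.20 (SE 0.10, limma, adjusted p = 1.13e-06). Atr itself read 4.77, 4.96 and 5.12 on AMPKα2 shRNA arrays and 5.40, 5.38 and 5.43 on control arrays. It fell by 0.45 (SE 0.10), although genes at its level of 5 to 6 had a median change of 0.81. Chek2, the effector kinase of ATM, read 7.06, 6.89 and 6.89 with the AMPKα2 shRNA and 6.75, 7.16 and 7.12 in controls. Its groups overlapped and its change of -0.07 (SE 0.12, limma, adjusted p = 0.606) did not pass, while -0.28 after median centring did. The difference between the changes of Chek1 and Chek2 was not tested. H2ax, the histone variant phosphorylated at breaks, read 6.05, 6.21 and 5.51 on AMPKα2 shRNA arrays and 7.92, 7.91 and 7.96 on control arrays, and fell by 2.01 (SE 0.15). Its other probe set, at a control level of 5.10, had -0.07, which did not pass. Mdc1, which binds the phosphorylated histone, fell by 0.88 (SE 0.09), with 6.60, 6.38 and 6.44 with the AMPKα2 shRNA and 7.40, 7.38 and 7.28 in controls.

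**Figure D3:**
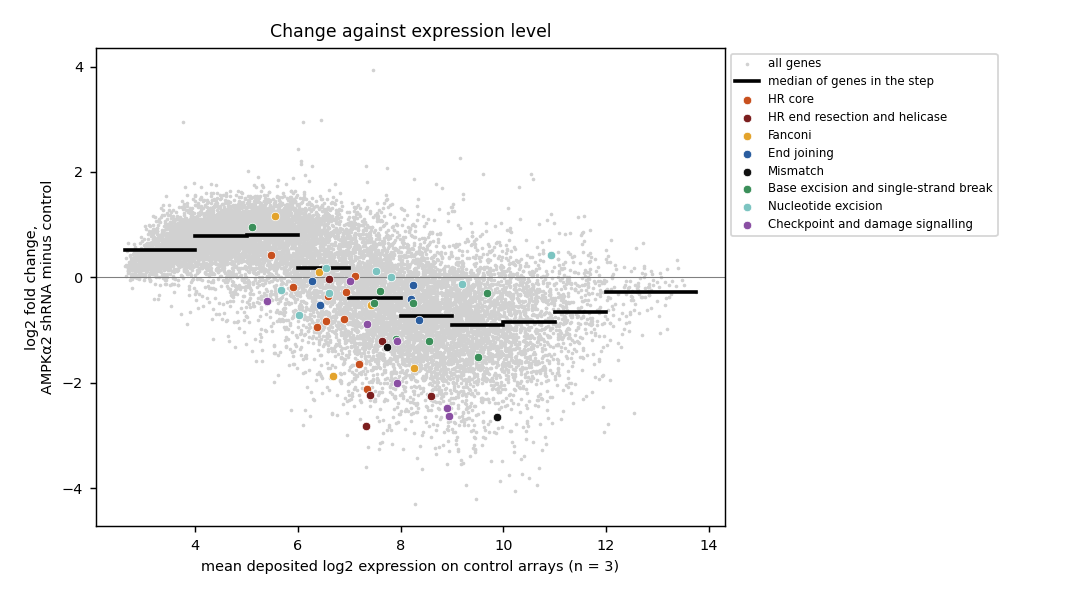
Log2 fold change (AMPKα2 shRNA minus control) of all 14217 genes in grey and of the 50 repair genes in colour by pathway, against the mean deposited log2 expression on the 3 control arrays, with the median of all genes in each step of the level as a black line. Of the 50 repair genes, 37 lie below the line of their step.

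Repair genes were set beside genes of their own expression level, because the change followed that level. On control arrays their levels lay between 5.11 and 10.93 with a median of 7.38, against a median of 6.99 for all genes. Median changes of all genes were 0.81 at control levels of 5 to 6, 0.19 at 6 to 7, -0.39 at 7 to 8, -0.74 at 8 to 9 and -0.90 at 9 to 10. Below the median of their step lay 37 of 50 repair genes (74.0%, against 50% of all genes), and their median distance from it was -0.52. By pathway the median distance was -1.50 for end resection, -1.34 for mismatch repair, -1.26 for the checkpoint, -0.98 for the other recombination genes, -0.14 for the Fanconi genes, -0.06 for end joining, 0.02 for base excision and 0.19 for nucleotide excision. The largest distances below were those of Exo1 (-2.43), Fancb (-2.06), Topbp1 (-1.89) and Blm (-1.84), and the largest above were those of Ddb1 (1.27) and Ercc3 (0.79).

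**Figure D4:**
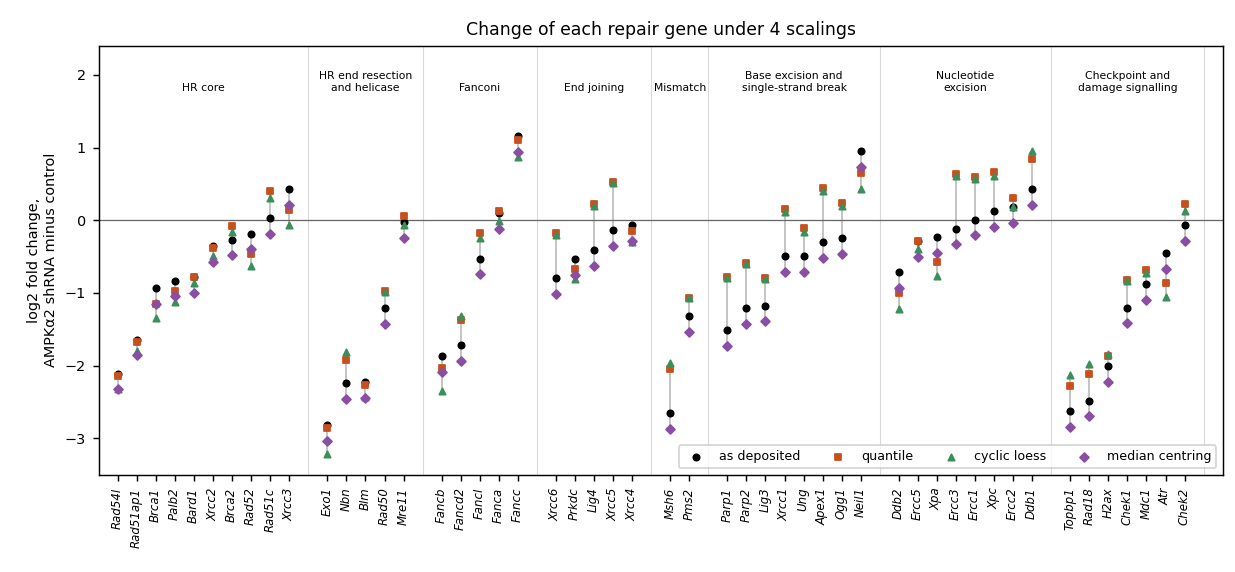
Log2 fold change (AMPKα2 shRNA minus control) of each measured repair gene with the values as deposited and after quantile normalization, cyclic loess and median centring, with a grey line over the range of the 4. Exo1, Blm, Msh6, Topbp1 and Rad18 stay below -1.9 throughout, whereas Lig4, Xrcc5, Apex1 and Ercc3 lie on both sides of 0.

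Where a repair gene had several probe sets, these often differed. There were 14 other probe sets for 11 genes, of which 6 had the same call as the one used, 1 was called the opposite way (Rad50), 2 rose where the one used did not pass (Xrcc4 and Xrcc5), and 5 did not pass. Within groups, the median SD of a repair gene was 0.14 on AMPKα2 shRNA arrays and 0.08 on control arrays.

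Other genes of the same routes, not among the 55, were counted beside them. The shares below are to be read against the 41.5% of all genes that fell and the 43.6% that rose. Of 26 other checkpoint genes 19 fell (73.1%) and 2 rose (7.7%), with a median of -0.92. In all 4 scalings 18 fell, as did 26.4% of all genes. Wee1, a kinase that restrains CDK1, fell by 2.22 (SE 0.08), Timeless, a fork protection factor, fell by 2.01 (SE 0.08), and Rpa3, the small subunit of the single-strand binding protein RPA, fell by 2.38 (SE 0.09), while Rad9b, a clamp subunit, rose by 1.27 (SE 0.08). All 4 kept these directions in each scaling. Of 5 other mismatch genes 4 fell (80%) and none rose, with a median of -1.54. Msh3, which recognises insertion loops, fell by 2.31 (SE 0.13) and the replication ligase gene Lig1 fell by 1.86 (SE 0.11). Of 9 other Fanconi genes 5 fell (55.6%) and 3 rose (33.3%), with a median of -0.85. Usp1, which removes ubiquitin from FANCD2, fell by 3.20 (SE 0.12), the conjugating enzyme gene Ube2t fell by 1.98 (SE 0.12), and Faap100, a core complex subunit, rose by 1.01 (SE 0.08), each in every scaling. Of 23 other recombination genes 15 fell and 3 rose, with a median of -0.49, and of 10 other end joining genes 5 fell and 1 rose, with a median of -0.16. Of 25 other excision genes 14 fell (56%) and 3 rose (12%), with a median of -0.37. That median became 0.18 with quantile-normalized values and 0.11 with cyclic loess, where 7 and 9 fell and 11 rose in each. Of all genes 28.9% and 31.5% fell in those scalings and 43.8% and 40.2% rose, so these counts lay near the shares of all genes.

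**Figure D5:**
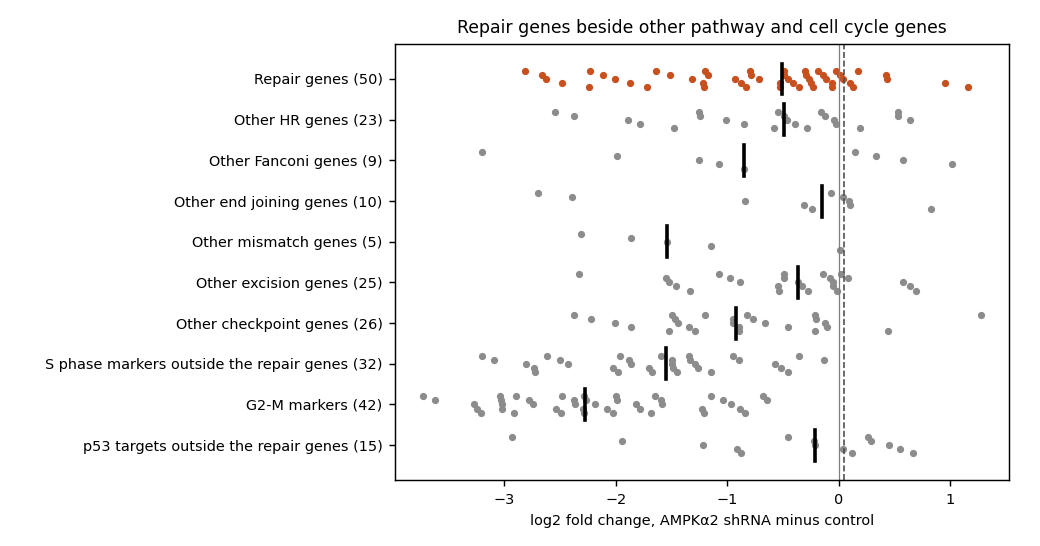
Log2 fold change (AMPKα2 shRNA minus control) of each measured gene of the repair genes and of 9 other lists, with the number of genes in brackets, black lines at the medians and a dashed line at the median of all genes, 0.05. The medians are -0.51 for the repair genes, -1.55 for S phase markers and -2.28 for G2-M markers.

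Markers of cycling cells moved with these falls. Some of the 32 S phase markers that are not among the 55 genes are on the lists above too. Of the 32, 31 fell (96.9%, against 41.5% of all genes) and none rose, with a median of -1.55. Of 42 G2-M markers all 42 fell, with a median of -2.28. Both medians stayed below 0 in the other scalings, at -1.02 and -1.75 with quantile-normalized values, -1.02 and -1.71 with cyclic loess and -1.76 and -2.49 with median centring. The median control level was 8.72 for S phase and 9.39 for G2-M markers. Of all genes 76.4% fell at control levels of 8 to 9 and 82.6% at 9 to 10. The median distance from the median of genes at their own level was -0.79 for S phase and -1.44 for G2-M markers. Uhrf1, a maintenance factor of DNA methylation, fell by 3.09 (SE 0.12), the proliferation antigen gene Mki67 fell by 3.73 (SE 0.11) and the topoisomerase gene Top2a fell by 3.62 (SE 0.08). The part of cell cycle composition in the falls of repair genes was not tested. Of 15 p53 targets outside the 55 genes 7 fell (46.7%, against 41.5% of all genes) and 5 rose (33.3%, against 43.6%). The median of these targets was -0.21, and 0.00 after quantile normalization. In all 4 scalings 4 of the 15 fell and 1 rose, where 26.4% of all genes fell and 25.5% rose. Among them Ccng1, the cyclin G1 gene, had the largest fall and fell by 2.93 (SE 0.09).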

How the data were processed

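The data are 6 arrays of NRK-52E cells given TGF-β1. The authors deposited log2 expression, with 1 value for each probe set on an array. Per the labels' protocols, RNA was extracted with Trizol and labelled with a one-cycle Affymetrix kit. The background correction, summarisation and normalization are not given in the sources used here, nor is signal over background.

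After 57 control probe sets were left out of 31099, 20826 had 1 gene symbol in the platform annotation, 436 had several and 9780 none. Each gene was read from its brightest probe set, by the mean of the 6 arrays. Repair genes had 64 probe sets, and all Entrez identifiers were in RefSeq (GRCr8) under the same symbol. The test was limma (version 3.58.1, under R 4.3.3), a 2-sided moderated test over 14217 genes without covariates, and p-values were adjusted by Benjamini-Hochberg over those genes, and probe sets of a gene were compared in a fit over all 31042. The other scalings used all 31042 probe sets. The fit was tested on simulated data. Promoters are RefSeq windows, the farthest upstream per gene. With 3 arrays against 3, an exact permutation test cannot give a 2-sided p under 0.1.

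The members, gene lists and tests were chosen with earlier results of these data known. Any repair gene may be named, and up to 3 rising and 3 falling genes of each other list with the largest changes among those that passed. Alternatives were other scalings, filters on level, other choices of probe set, variance settings, weights per array, a replicate block, leaving out each array and other thresholds. Same-numbered arrays did not deviate together (correlations of -0.02, 0.01 and -0.10).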

Additional observations from a re-analysis of the deposited data

How the results depend on the processing

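Of the 50 repair genes, 27 kept their call and direction under every alternative run for single genes that gave a value. Across the scalings 14 changed sign, of which 6 passed as deposited or in the scaling that turned them and 8 passed in neither (Rad51c, Mre11, Fanca, Ogg1, Ercc1, Xpc, Ercc2 and Chek2). Xrcc4 turned with another choice of probe set. With quantile-normalized values the repair genes that rose numbered 11, the numbers that fell were 1 in end joining, 3 in base excision and 5 in excision repair as a whole, and the medians were 0.16 for all genes, -0.87 for recombination with the Fanconi genes, 0.019 for base excision, 0.45 for nucleotide excision and 0.19 for excision repair. Lig4 then had 0.23, Xrcc5 0.53, Xrcc1 0.15, Apex1 0.44 and Ercc3 0.63. Under cyclic loess 11 repair genes rose and 3 base excision genes fell, with medians of 0.093 for all genes, -0.62 for repair genes, -0.92 for recombination with the Fanconi genes, 0.37 for nucleotide excision and 0.15 for excision repair. Xrcc3 had -0.067 under loess, Lig4 0.19, Xrcc5 0.51, Xrcc1 0.12, Apex1 0.40 and Ercc3 0.61. Under median centring 5 end joining genes fell, and the medians were -0.17 for all genes, -0.73 for repair genes, -1.02 for recombination with the Fanconi genes and -0.49 for excision repair. The cause of these shifts was not tested.

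Without the lowest 25% of genes 3318 genes rose, with a median of all genes of -0.32. Without the lowest 50%, 4835 of 7109 genes fell (68%) and 1189 rose. Of the 27 repair genes then tested 20 fell (74.1%), a share close to that of all genes, and 1 rose. The filter left 5 genes of recombination and the Fanconi genes together, of which 4 fell, 2 of them in end resection. Outside end resection it left 1 recombination gene, Rad51c, which did not fall. It left 4 nucleotide excision genes, of which 0 fell. The medians were then -0.58 for all genes, -0.80 for repair genes, -1.21 for recombination with the Fanconi genes and 0.069 for nucleotide excision. Rad51c alone had 0.033. At a threshold of 2-fold 2639 genes fell and 1654 rose, and 17 repair genes fell and 1 rose. Those falls were 8 in recombination with the Fanconi genes (2 outside end resection and the Fanconi genes), 3 in excision repair (3 in base excision and 0 in nucleotide excision) and 0 in end joining. At an adjusted p of 0.01, 1 nucleotide excision gene fell. Averaging probe sets gave -0.76 for recombination with the Fanconi genes and 0.33 for Xrcc4. The most variable probe set gave 0.11 for all genes, 0.72 for Xrcc4 and 0.53 for Xrcc5. Array weights gave 0.0032 for the nucleotide excision median.

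Leaving out 1 array at a time gave 31 to 34 repair genes that fell and 4 to 5 that rose, and 1 to 3 nucleotide excision genes that fell, with 1 without AMPKα2 shRNA replicate 1 or 3 or control replicate 1. The nucleotide excision median lay between -0.12 without AMPKα2 shRNA replicate 1 and 0.060 without AMPKα2 shRNA replicate 3. Replicate numbers did not pair the arrays, and with the number as a block 34 repair genes fell and 4 rose. Brca2 (-0.27, limma, adjusted p = 0.0426) and Ogg1 (-0.25, adjusted p = 0.0361) passed with the block, and Xpa (-0.23, adjusted p = 0.061) did not. With 3 arrays a group, the number of arrays limits the precision, and small changes such as those of Xpa, Ercc5 and Xrcc2 were near the threshold.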
